A study of Mus musculus with 4 samples.

Results

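The cytosolic ribosomal protein (RP) genes encode the protein part of the ribosomes that translate nuclear-encoded mRNAs. They were taken by name from the gene tables of 4 RNA-seq libraries of murine keratinocytes (KCs), as all rows named Rps, Rpl, Rplp or Rpsa with a number and, for some, a closing letter, without rows marked as pseudogenes and without the ribosomal S6 kinases. The rule found 83 of 25814 annotated genes, and the mitochondrial RP genes (78, named Mrpl and Mrps) were kept apart. All 83 are annotated as protein coding. Of these, 31 encode core proteins of the small (40S) subunit, 43 core proteins of the large (60S) subunit and 3 the P stalk, and 6 carry the names of paralogues (Rpl3l, Rpl7l1, Rpl10l, Rpl22l1, Rpl39l and Rps27l). The name rule did not take genes such as Rack1, Fau, Rpl36al and Rps27rt, which encode ribosomal proteins, or in the case of Rps27rt a related sequence, under other names, and these are given separately.

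The KCs came from tail skin of adult mice on the 129/sv background and were kept without treatment in serum-free SFM KC medium with 0.06 mM Ca++. One group was WT (2 libraries) and the other Nfat5-/- (2 libraries), and the study used WT littermates as controls. The deletion is not described as restricted to KCs, so that the cells were taken from animals whose other organs carried it too. The study describes the libraries as coming from KCs of 2 WT and Nfat5-/- sibling mice, which leaves unclear whether the number is per genotype, and the sex of the mice was not given in the sources used here. NFAT5 is a transcription factor of the Rel family that is known for its activity under osmotic stress. Whether ablation of NFAT5 changed the RNA levels of the RP genes in these untreated cells is the comparison described here.

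Ribosomal proteins are made in roughly equal amounts for assembly with ribosomal RNA in the nucleolus, and proliferating basal KCs depend on a steady supply of ribosomes. Their mRNAs are short, abundant and start with a stretch of C and T bases, the 5′ terminal oligopyrimidine (TOP) motif. Through this motif the translation of RP mRNAs is controlled by mTOR and the RNA-binding protein LARP1, a layer that RNA levels do not show. RP genes have given rise to many processed pseudogenes, and a short read from an RP mRNA can therefore match several places in the genome.

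Promoter windows were present for 63 of the 83 genes in RefSeq (GRCm38.p6). The windows below run from 30 bases before to 30 bases behind the annotated start, and capitals mark the longest unbroken run of C and T. Where runs were equally long, as in Rps27l and Rps7, only the first is marked. Rpl7a is shown for the longest run of all RP genes and Rpl28 and Rps6 for runs just above the median, Rps27 and Rps27l as a pair of paralogues, and Rps7, Rps12, Rps2 and Rpl41 because they lie at the ends of the range of fold changes described further on.
Rpl7a, chr2:26910777-26910836 (+): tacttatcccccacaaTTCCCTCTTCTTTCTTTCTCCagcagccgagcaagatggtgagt
Rpl28, chr7:4792935-4792994 (+): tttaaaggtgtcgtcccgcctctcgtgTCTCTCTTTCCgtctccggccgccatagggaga
Rps6, chr4:86857338-86857397 (-): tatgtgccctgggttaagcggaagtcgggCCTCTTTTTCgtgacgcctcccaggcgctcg
Rps27, chr3:90213619-90213678 (-): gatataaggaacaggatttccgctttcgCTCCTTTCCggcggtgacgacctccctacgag
Rps27l, chr9:66946056-66946115 (+): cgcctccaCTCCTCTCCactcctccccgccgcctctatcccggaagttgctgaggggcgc
Rps7, chr12:28635924-28635983 (-): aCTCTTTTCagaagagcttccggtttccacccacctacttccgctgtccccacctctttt
Rps12, chr10:23787180-23787239 (-): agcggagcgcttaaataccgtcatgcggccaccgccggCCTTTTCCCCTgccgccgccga
Rps2, chr17:24720033-24720092 (+): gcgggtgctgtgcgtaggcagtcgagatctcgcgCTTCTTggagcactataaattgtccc
Rpl41, chr10:128549139-128549198 (-): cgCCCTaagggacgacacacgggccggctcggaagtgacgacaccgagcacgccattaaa

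The longest run of C and T in the 60 bases around the start had a median of 9 bases over the 63 RP genes. Over all 27025 genes with RefSeq windows the median was 6 bases. A gene with several windows was counted once, by its longest run. A run of at least 8 bases was present in 35 of 63 RP genes (55.6%) and in 25.8% of all genes with windows. Rpl7a held a run of 21 bases, Rpl28 of 11 and Rps6 of 10, while that of Rpl41 had 4. Rps27 and its paralogue Rps27l both held a run of 9 bases, in Rps27 across the annotated start and in Rps27l before it. At a further annotated start of Rps27l, not printed above, the longest run had 5 bases.

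Short motifs were searched over the whole RefSeq window of 250 bases before to 50 bases behind the start. Percentages are of genes with a match in any of their windows, and tested genes are those with enough reads for a test. The pyrimidine motif CTCTTTC on the forward strand was in 20.6% of the RP genes, 4.6% of all genes and 4.45% of tested genes. For CTTTTCC on the forward strand the values were 14.3%, 4.56% and 4.75%. The letters CCGGAAG, a core of ETS family sites, were found on either strand in 41.3% of the RP genes. This compares with 9.93% of all genes and 20.7% of tested genes. AAGATGGC on either strand, a core of YY1 sites, was in 9.52% of the RP genes, 3.19% of all genes and 5.36% of tested genes. For TATAAA on the forward strand the values were 9.52%, 9.77% and 5.19%. Neighbouring matches of these motifs can share letters at their ends, and a match is a description of the letters and not a bound site.

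The libraries held 15899630 to 23059639 reads on annotated exons, which set the level of 3 reads at 0.130 to 0.189 counts per 1000000 exon reads (CPM). The replicates of each group were not repeats of one library: the chi-square of their counts over all genes, divided by its degrees of freedom, was 18.0 for WT and 18.7 for Nfat5-/-. As a check of the labels, Nfat5 itself gave 1.67 and 3.0 reads per kilobase of exon and 1000000 mapped reads (RPKM) in WT, against 2.02 and 2.78 RPKM where the label was Nfat5-/-. The groups overlapped, with an edgeR adjusted p of 0.959. The value sums reads over all annotated exons of Nfat5, and the exons removed in the mutant are not given in the sources used here. It therefore cannot serve as a check, and genotypes are given as labelled. The KC marker genes Krt5 and Krt14 were between 4990.4 and 6985 RPKM in all 4 libraries, but Krt15 was below 0.440 RPKM.

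RP mRNAs were among the most abundant RNAs of these KCs. Of the 83 genes, 80 had enough reads for a test. Their mean RPKM over the 4 libraries ran from 20.7 for Rps12 to 3043 for Rplp1, with a median of 655 RPKM, against a median of 6.66 RPKM over all 12111 genes tested. There were 76 RP genes above 100 RPKM and 53 above 500 RPKM, and RP genes made up 40 of the 100 genes and 64 of the 200 genes with the highest RPKM. By subunit, the median level was 768 RPKM for the 40S core, 612 RPKM for the 60S core and 1174 RPKM for the P stalk.

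Among the 10 highest members were Rplp1, Rps2, Rpl41, Rpl13, Rps18, Rpl23a, Rplp0 and Rpl13a. Rplp1, a protein of the P stalk that recruits translation factors, was at 3171 and 3024 RPKM in WT, against 3198 and 2778 RPKM in Nfat5-/-. Rps2, a 40S protein near the mRNA entry site, was at 2145 and 2169 RPKM in WT, against 2097 and 1779 RPKM in Nfat5-/-. Rpl41, the smallest protein of the large subunit, was at 1922 and 1780.2 RPKM in WT, against 1762 and 1518 RPKM in Nfat5-/-. In Rplp1 the groups overlapped, whereas in Rps2 and Rpl41 both Nfat5-/- libraries lay below both WT libraries, with replicate 2 of Nfat5-/- the lowest.

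**Figure D1:**
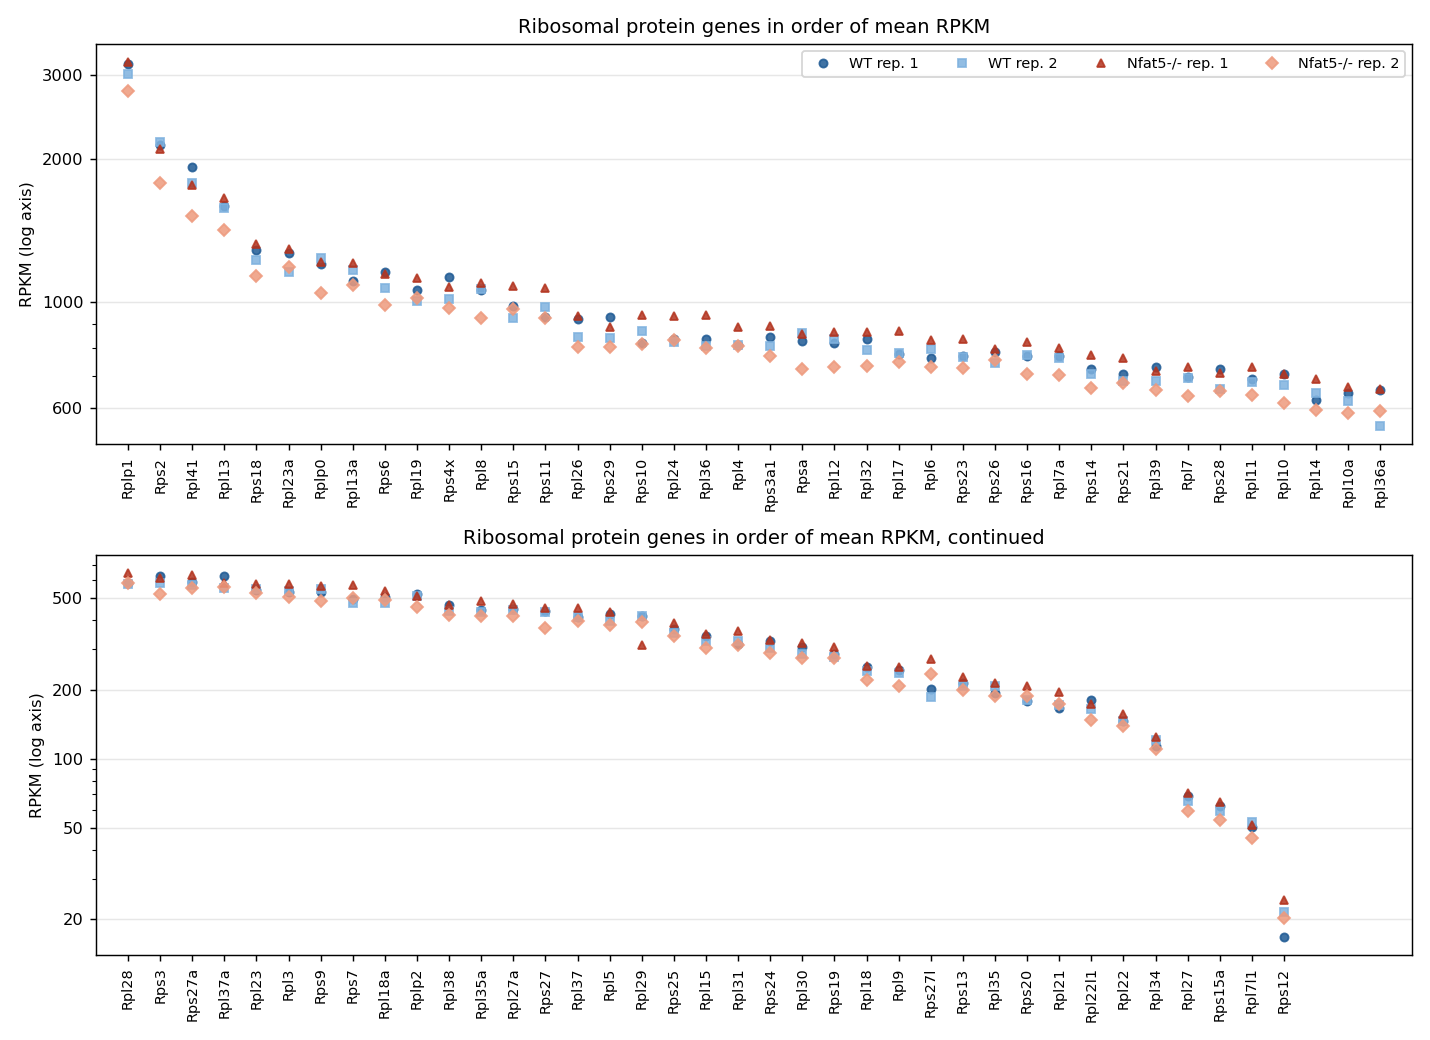
RPKM on a log axis of 77 of the 80 RP genes with enough reads for a test, ranked by their mean, with 1 point for each library (WT blue, Nfat5-/- red). Replicate 1 of Nfat5-/- lies highest for most genes and replicate 2 lowest for most, whereas both Nfat5-/- libraries lie above WT for Rps27l, and replicate 1 is the lowest for Rpl29.

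No RP gene passed the test between the genotypes. In edgeR on total exon reads, 0 of 80 RP genes had an adjusted p under 0.05, whereas 1.44% of all genes tested (175 of 12111) did. At an unadjusted p under 0.05 the count was 1 RP gene, Rps27l, against 14.7% of all genes. DESeq2 on the same reads called 0 RP genes (3.47% of all) and limma-trend on log2(RPKM + 1) called 0 (1.19% of all), each with 1 RP gene at an unadjusted p under 0.05 (11% and 14.4% of all).

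The fold changes of the RP genes lay close to 1. Their median log2 fold change, Nfat5-/- over WT, was 0.01, against -0.01 over all genes tested, with 41 RP genes above 0 and 39 below. In 70 of the 80 genes the log2 fold change was smaller than 0.1 in size, which held for 34.7% of all genes. The standard errors ran from 0.10 to 0.17 on the log2 scale. For 78 of the 80 genes the whole 95% interval of the change lay within 1.5-fold in either direction, and the exceptions were Rps27l and Rps12. The lowest and highest bounds of any interval were -0.54 for Rpl29 and 0.66 for Rps27l, so that no interval of the 80 RP genes reached beyond these. The p-values measure the spread between libraries that may share animals or handling.

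**Figure D2:**
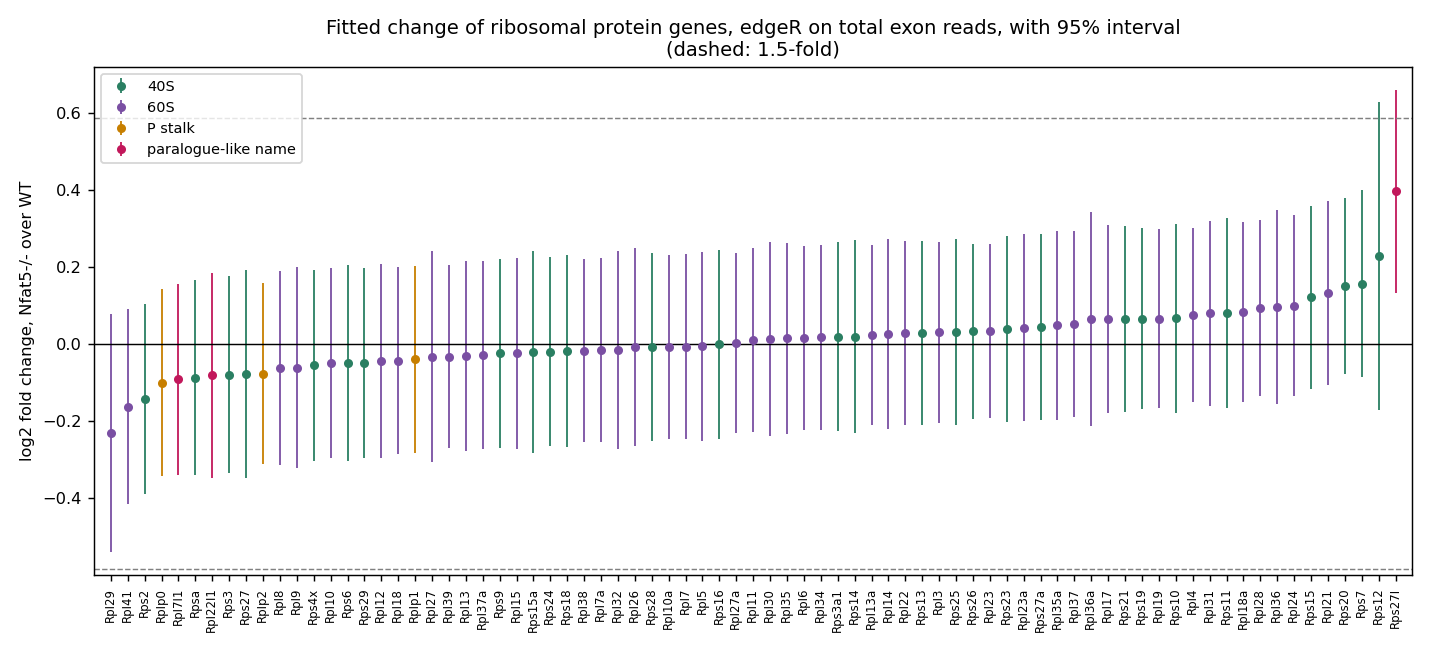
Fitted log2 fold change, Nfat5-/- over WT, of 77 of the 80 RP genes (points, coloured by subunit) with its 95% interval (bars) from edgeR on total exon reads, and dashed lines at 1.5-fold. Of the intervals plotted only that of Rps27l, from 0.13 to 0.66, does not include 0.

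By subunit, the medians lay close to each other and to 0. The 31 genes of the 40S core had a median log2 fold change of 0.02, with 16 above 0 and 15 below, and ranged from -0.14 for Rps2 to 0.23 for Rps12, whose value on unique exon reads was -0.13. The 43 genes of the 60S core had a median of 0.01, with 24 above 0 and 19 below, and ranged from -0.23 for Rpl29 to 0.13 for Rpl21. All 3 genes of the P stalk were below 0, with -0.10 for Rplp0, -0.08 for Rplp2 and -0.04 for Rplp1, and adjusted p-values in edgeR from 0.715 to 0.896. Without replicate 2 of Nfat5-/- the value of Rplp1 was 0.047 and that of Rplp0 -0.008. Without replicate 1 of Nfat5-/- that of Rplp0 was -0.19. The 30 RP genes that host snoRNA genes in their bodies (58 snoRNA genes in all) had a median of 0.01, and the 50 without had a median of -0.01.

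On total exon reads, Rps27l showed the largest change of the RP genes. On unique exon reads, Rps27 (0.49) and Rpl29 (-0.44) had log2 fold changes further from 0, with larger standard errors. Rps27l encodes a paralogue of the 40S protein eS27 and is known as a target gene of p53. The gene (chromosome 9, 66946086 to 66949516, + strand) was at 201 and 185 RPKM in WT, against 271 and 233 RPKM in Nfat5-/-. Both Nfat5-/- libraries lay above both WT libraries. This was a log2 fold change of 0.40 (SE 0.11). The edgeR p was 0.00884 and the adjusted p 0.159, so that it did not pass the threshold among all genes. Of its exon reads 95.1% matched only this place, and on unique exon reads the log2 fold change was 0.39 with an adjusted p of 0.153. DESeq2 gave an adjusted p of 0.0813. Leaving out single libraries gave log2 fold changes between 0.30 and 0.49, and an edgeR fit without a filter on low counts gave an adjusted p of 0.0267. The fit without a filter called 1109 genes in all, against 175 with the filter.

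Its partner Rps27 (chromosome 3, 90212522 to 90213651) was at 438 and 437 RPKM in WT, against 453 and 370 RPKM in Nfat5-/-, with overlapping groups and a log2 fold change of -0.08 ± 0.12 (SE). Of its exon reads 0.434% matched only Rps27, the lowest share of all RP genes tested, and unique reads gave 0.49 ± 0.45 (SE). The latter value is too imprecise to set against that of Rps27l.

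The other paralogues were lower in level or not detectable. Rpl22l1, a paralogue of the 60S protein Rpl22, was at 179, 164, 174 and 148 RPKM in WT replicates 1 and 2 and Nfat5-/- replicates 1 and 2, and Rpl22 at 146, 147, 157 and 138 RPKM in the same order. Their log2 fold changes were -0.08 ± 0.11 and 0.03 ± 0.10 (SE), and the groups overlapped in both. Rpl7l1, which has a role in ribosome assembly, was at 50.5 and 53.2 RPKM in WT, against 51.4 and 45.0 RPKM in Nfat5-/-, with a log2 fold change of -0.09, whereas Rpl7 was near 689 RPKM, with -0.01. Rpl3l, the paralogue of Rpl3 in striated muscle, had 1 read in replicate 1 of Nfat5-/- and none elsewhere. Rpl39l had 1 read in replicate 2 of Nfat5-/-, and Rpl10l, which takes over from the X-linked Rpl10 in male germ cells, had 0 reads in all libraries, where 3 reads would be 0.130 to 0.189 CPM. Their partners Rpl3, Rpl39 and Rpl10 were at 537, 694 and 674 RPKM on average.

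After Rps27l, the highest log2 fold changes were those of Rps12 (0.23), Rps7 (0.16), Rps20 (0.15) and Rpl21 (0.13), with edgeR adjusted p-values from 0.533 to 0.608. On unique exon reads Rps12 was at -0.13 and Rpl21 at -0.10, so that only Rps7 and Rps20 of these had the same sign in both. For Rps12, far more reads lay on the pseudogene row Rps12-ps3, which had a log2 fold change of 0.06 on total exon reads. Rps7 was at 495 and 474 RPKM in WT, against 571 and 500.5 RPKM in Nfat5-/-, and Rps20 was at 179 and 180.4 RPKM in WT, against 207 and 188 RPKM in Nfat5-/-. In both genes the groups did not overlap, but replicate 2 of Nfat5-/- lay close to the WT libraries. Rps7 and Rps20 are 40S proteins, and all exon reads of Rps20 were unique.

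Rpl29, a 60S protein, had the lowest log2 fold change of the RP genes. It was at 418 and 418 RPKM in WT, against 314 and 392 RPKM in Nfat5-/-. The low value was mainly that of replicate 1 of Nfat5-/-, the library in which most other RP genes were highest. In unique exon reads, 18.9% of all, it was at 113 and 116 CPM in WT and at 62 and 105 CPM in Nfat5-/-. The log2 fold change was -0.23 ± 0.13 (SE) on total and -0.44 ± 0.23 on unique exon reads, with edgeR adjusted p-values of 0.474 and 0.415. Without replicate 1 of Nfat5-/- the value on total exon reads was -0.06, and without replicate 2 it was -0.41. Rpl41 (-0.16) and Rps2 (-0.14) followed, with adjusted p-values of 0.545 and 0.594. Without replicate 1 of Nfat5-/- their values were -0.25 and -0.25, and without replicate 2 they were -0.070 and -0.040.

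**Figure D3:**
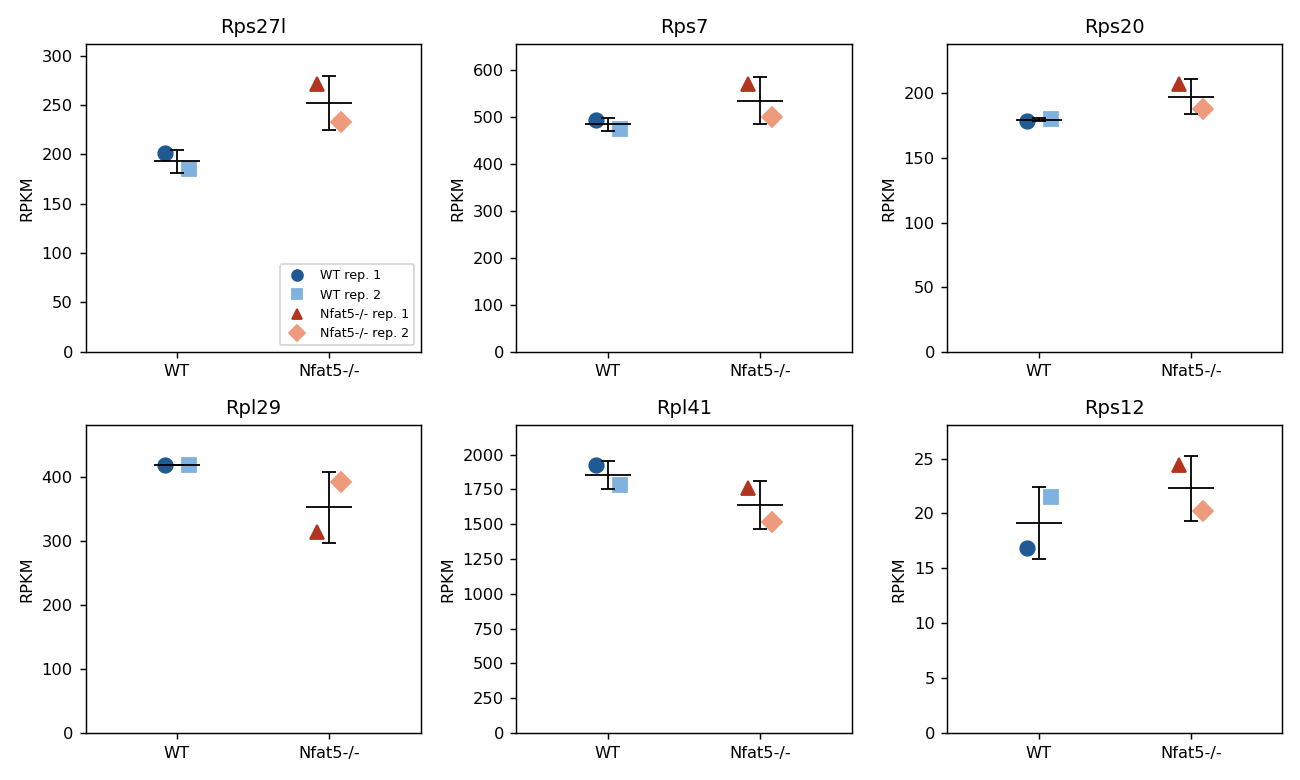
RPKM, on axes that start at 0, of 6 RP genes in each library (points) with the group mean and SD of 2 libraries (black). Rps27l, Rps7 and Rps20 lie higher and Rpl29 and Rpl41 lower in both Nfat5-/- libraries, the groups of Rps12 overlap, and Rpl29 is lowest in replicate 1 of Nfat5-/-.

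Counted over all RP genes, the RPKM of the groups did not overlap in 7 of 80, with 4 genes higher in Nfat5-/- (Rps27l, Rps7, Rps20 and Rpl21) and 3 lower (Rpl29, Rpl41 and Rps2). Over all genes tested 21.8% were higher and 25.6% lower without overlap. In the other 73 RP genes the groups overlapped.

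This overlap went along with a common order of the libraries. In log2 CPM, replicate 1 of Nfat5-/- was the highest library for 61 of the 80 RP genes, which held for 18.4% of all genes, and replicate 2 of Nfat5-/- was the lowest for 57, which held for 31.1% of all genes. Replicate 1 lay above and replicate 2 below both WT libraries in 42 RP genes and in 6.13% of all genes. Replicate 1 exceeded replicate 2 of Nfat5-/- in 79 RP genes, with a median difference of 0.15 on the log2 scale, where the exception was Rpl29, and over all genes the median difference was 0.00. The WT libraries differed less, with replicate 1 above replicate 2 in 60 RP genes and a median difference of 0.04. Taken over the RP genes alone, the chi-square between replicates divided by its degrees of freedom was 15.7 for WT and 147 for Nfat5-/-. The spread within the Nfat5-/- group was thus larger than the difference between the group medians. Leaving out replicate 1 of Nfat5-/- put the median log2 fold change of the RP genes at -0.069, and leaving out replicate 2 put it at 0.088.

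**Figure D4:**
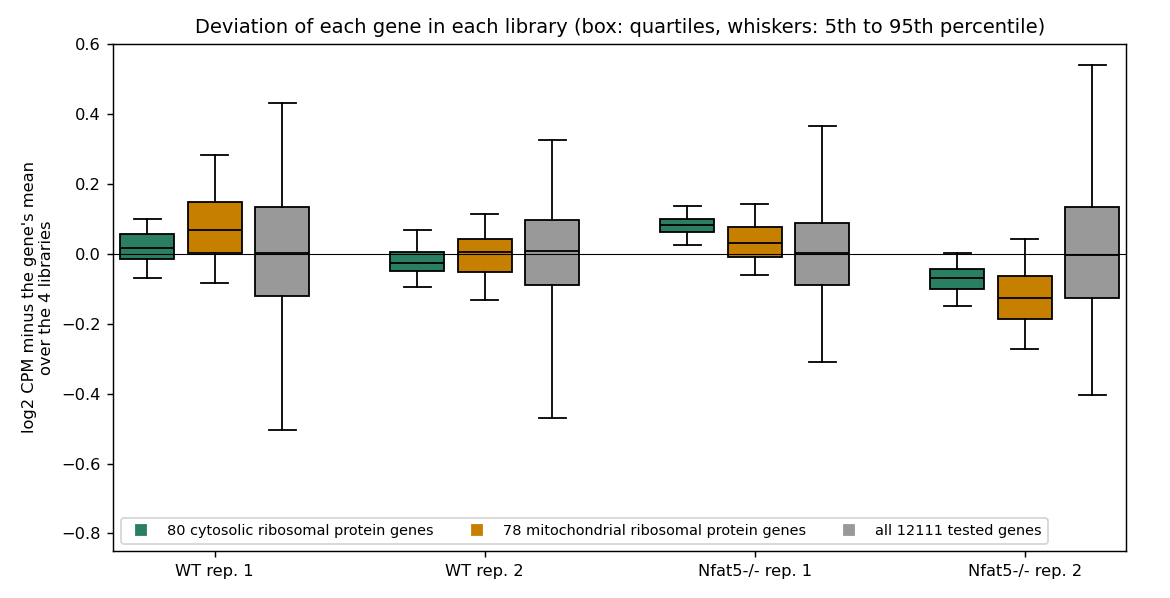
Deviation of each gene's log2 CPM in a library from its mean over the 4 libraries, for the cytosolic RP genes, the mitochondrial RP genes and all genes tested (boxes: quartiles with the median, whiskers: the 5th and 95th percentiles). The medians of the cytosolic RP genes are 0.02 and -0.03 in WT and 0.08 and -0.07 in Nfat5-/-, and those of all genes lie near 0 in each library.

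As a group, the RP genes took 5.95% and 5.84% of all exon reads in WT and 6.19% and 5.41% in Nfat5-/-. The WT values lay between those of Nfat5-/-. The group means were 5.90 ± 0.0826% and 5.80 ± 0.553% (SD, n = 2 each), and an exact two-sided permutation test gave p = 1, where the smallest p that 2 libraries against 2 allow is 0.33. The 95% Wilson intervals of single libraries were far narrower than these differences, from 5.83 to 5.85% in WT replicate 2 for example, but cover counting error only. In bulk RNA, fewer cells of a type and less RNA per cell cannot be told apart. By RPKM, the RP genes made up 12.8% and 12.5% of the sum in WT and 13.4% and 12.1% in Nfat5-/-. By unique exon reads the shares were 3.49% and 3.41% in WT and 3.62% and 3.14% in Nfat5-/-, in the same order of libraries.

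The share of reads that match a single place varied widely among the RP genes. It had a median of 44.6%, with 44 genes under 50% and 17 genes under 10%, whereas 86.8 to 87.3% of all exon reads of a library were unique. Among the genes with at least 90% unique reads, 17 were tested, and Rps4x, Rpl8, Rps15 and Rps10 were among the highest of these, between 861 and 1048 RPKM on average. Their median log2 fold change was 0.03, with 10 genes above 0 and 7 below. Rps27, Rpl30, Rps23, Rpl21 and Rpl13 had the lowest shares, from 0.434% to 1.05%.

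No RP gene passed in the other classes of exon reads either. On unique exon reads 0 of 80 RP genes passed (1.87% of all genes), 1 had an unadjusted p under 0.05 in edgeR (15.1%), and the median log2 fold change was 0.01. On reads across exon-exon boundaries, 0 of 80 passed in edgeR (1.33% of all genes), 1 had an unadjusted p under 0.05 (12%), and the median was -0.02. These reads too can match several places. In WT replicate 1, Rps16 had 6520 exon-exon reads with 3 unique, and Rpl21 had 3475 with 17 unique. Exon-exon reads are therefore not a count free of pseudogenes. Between total and exon-exon reads the log2 fold change moved by less than 0.1 in 79 of 80 genes, and between total and unique reads in 71. The value for Rps27l in exon-exon reads was 0.39. Rpl21 and Rps12 turned from positive values on total reads to -0.10 and -0.13 on unique reads, but kept positive values of 0.14 and 0.17 on exon-exon reads.

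**Figure D5:**
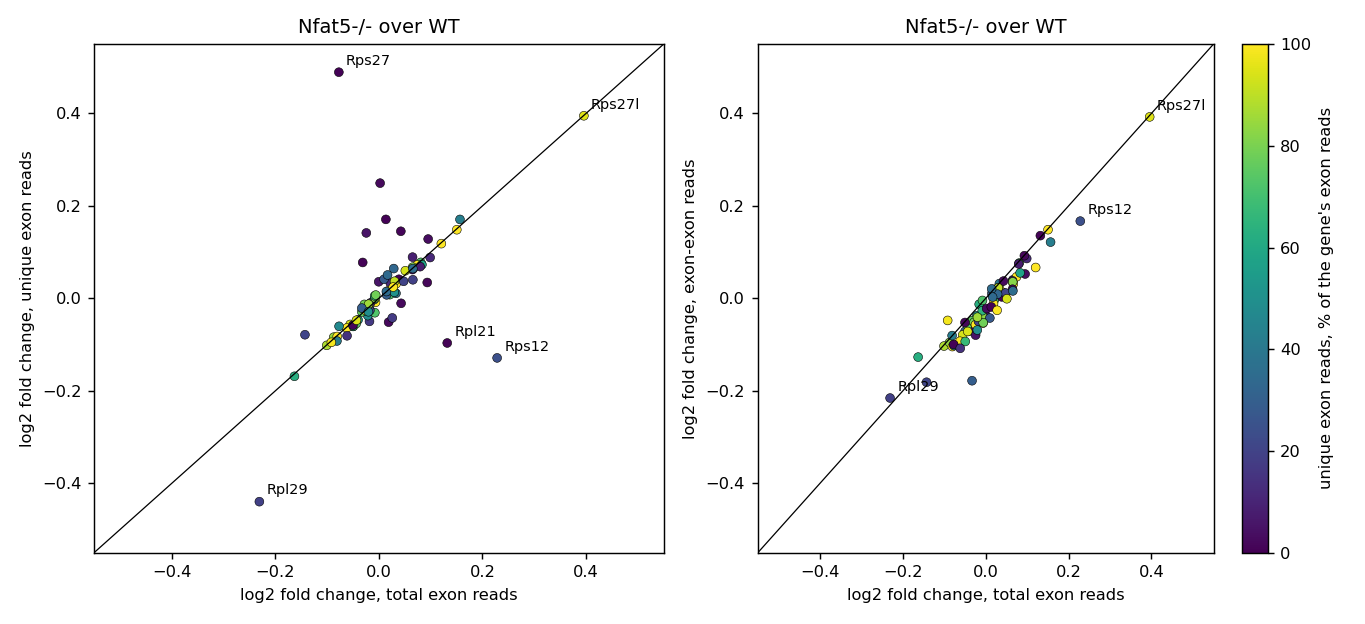
Log2 fold change, Nfat5-/- over WT, of each RP gene on total exon reads (x axis) against unique exon reads (left) and exon-exon reads (right), coloured by the percentage of unique reads, with the line of equal values. Rps27l lies on the line in both panels, and Rps27, far from it on the left, has 0.434% unique reads.

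Rps12, a 40S protein, had the lowest level of the 80 RP genes tested, and far more reads lay on a pseudogene row of its name. Rps12 itself had 215 and 365 exon reads in WT and 451 and 296 in Nfat5-/-, whereas the pseudogene row Rps12-ps3 (chromosome 19, 59322290 to 59322783) had 14936 and 18542 in WT and 23355 and 15821 in Nfat5-/-, none of them unique. The sum of both was 953 and 892 CPM in WT and 1032 and 880.1 CPM in Nfat5-/-, with overlapping groups. Rpl27, at 66.3 RPKM on average, stood beside Rpl27-ps3 at 1033 RPKM, and their sum was 562 and 581 CPM in WT and 628 and 535 CPM in Nfat5-/-. Which gene the reads on these pseudogene rows came from was not tested, since none of them matched a single place. The levels and ranks of Rps12 and Rpl27 in the files are therefore given beside those rows. Rpl10 and Rpl10-ps3 summed to 1131 and 1105 CPM in WT and 1106 and 1001 CPM in Nfat5-/-.

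Intron reads, which come in part from unspliced RNA, were few. They made up 0.541% and 0.565% of all intron reads in WT and 0.526% and 0.511% in Nfat5-/-, with both Nfat5-/- values below both WT values and an exact permutation p of 0.33, the smallest this design allows. Of 61 RP genes with enough intron reads, 0 passed in edgeR (0.0871% of all genes, 5 of 5740), and 3 had an unadjusted p under 0.05, against 12.2% of all genes. Their median log2 fold change in intron reads was 0.13, against 0.02 over all genes, so that the median gene and the summed share pointed in opposite directions. Rps15 had 31 and 55 intron reads in WT and 71 and 50 in Nfat5-/-, Rpl12 had 80 and 124 against 76 and 50, and Rps25 had 3 and 11 against 21 and 9. Their adjusted p-values were 0.360 to 0.388. Many RP introns hold snoRNA genes, whose RNA could not be told from unspliced RNA here.

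Of 5 genes of ribosomal proteins under other names, 0 passed the test in edgeR, against 1.44% of all genes, and 0 were at an unadjusted p under 0.05, against 14.7%, with 1 gene above 0 and 4 below. Rack1, the scaffold protein of the 40S head with 100% unique reads, was at 966 and 936 RPKM in WT, against 984 and 844 RPKM in Nfat5-/-, in the order of most RP genes. Fau, which encodes a ribosomal protein fused to a ubiquitin-like sequence, was at 114 and 117 RPKM in WT, against 126 and 102 RPKM in Nfat5-/-, with overlapping groups. Rpl36al had a log2 fold change of 0.02 and its X-linked partner Rpl36a of 0.06. Rps27rt, with 0.768% unique reads, was at 23.5 and 24.3 RPKM in WT, against 13.1 and 26 RPKM in Nfat5-/-.

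Mitochondrial RP genes, whose products build the ribosomes of the mitochondrial matrix, were measured beside the cytosolic ones. None of the 78 passed the test in edgeR (1.44% of all genes), 1 had an unadjusted p under 0.05 (14.7% of all), and 22 were above 0 and 56 below, where 48.0% of all genes were above 0. The median log2 fold change was -0.08, against -0.01 over all genes. Their largest values were -0.35 for Mrpl1 and -0.31 for Mrpl24. They took 0.311% and 0.296% of exon reads in WT and 0.304% and 0.266% in Nfat5-/-, with replicate 2 of Nfat5-/- the lowest as for the cytosolic RP genes.

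Genes that build and use ribosomes were taken from lists of textbook members. The counts of each list stand against 1.44% of all genes called, 14.7% at an unadjusted p under 0.05 and 48.0% above 0. Of 45 genes of ribosome biogenesis none passed in edgeR, 2 had an unadjusted p under 0.05, 30 were above 0 and 15 below, with a median log2 fold change of 0.04. Ncl, the nucleolar protein nucleolin, was at 42.1 and 44.2 RPKM in WT, against 52.2 and 53.8 RPKM in Nfat5-/- (log2 fold change 0.31, adjusted p 0.206). Imp3, a protein of the small subunit processome, was at 47.7 and 40.8 RPKM in WT, against 37.6 and 32.1 RPKM in Nfat5-/- (-0.33, adjusted p 0.301). The groups did not overlap in either gene, but neither value passed.

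Of 20 genes of RNA polymerase I and its factors, which transcribe ribosomal RNA, none passed and none had an unadjusted p under 0.05 in edgeR. The largest log2 fold changes were those of Polr2k (0.20) and Ttf1 (0.16). Without replicate 1 of Nfat5-/- the value of Polr2k was 0.055, and without WT replicate 1 that of Ttf1 was 0.055. Of 13 elongation factors and other products of TOP mRNAs none passed, and 2 had an unadjusted p under 0.05. Pabpc1, the poly(A)-binding protein, was at 1075 and 1105 RPKM in WT, against 964 and 886 RPKM in Nfat5-/- (-0.23, adjusted p 0.335), and Hnrnpa1 measured 117 and 125 RPKM against 155 and 134 RPKM (0.27, adjusted p 0.311). Of 34 initiation factors none passed in the edgeR fit of total exon reads and 1 had an unadjusted p under 0.05, and the largest values were 0.51 for Eif3j1, at under 1 RPKM, and 0.49 for Eif2s3x, where WT replicate 1 was at 50.4 RPKM and the other libraries between 91.3 and 103 RPKM. Without WT replicate 1 the log2 fold change of Eif2s3x was 0.14, and without WT replicate 2 it was 0.97 with an adjusted p of 0.0251 in edgeR. Without a filter on low counts Eif2s3x had an adjusted p of 0.00169 in edgeR, in a fit that called 1109 genes in all, against 175 with the filter. Cwf19l1, a snoRNA host, had a log2 fold change of -0.07, and further noncoding snoRNA hosts were not analysed here.

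In the mTOR and MYC network, which sets the output of RP mRNAs and genes, 1 of 32 genes passed in edgeR, against 1.44% of all genes. Mxd1, which encodes an antagonist of MYC at MAX, rose from 1.85 and 1.23 RPKM in WT to 3.69 and 5.05 RPKM in Nfat5-/-, a log2 fold change of 1.53 (SE 0.25) at an adjusted p of 0.0343. It did not pass in limma-trend on log2(RPKM + 1) (adjusted p 0.0506), on exon-exon reads in edgeR (0.0879), or in edgeR without WT replicate 2 (0.0597), without Nfat5-/- replicate 1 (0.0668) or without Nfat5-/- replicate 2 (0.227). The study had named Mxd1 in these KCs, so that the count of this list is not independent of these libraries. Mycn, at under 0.4 RPKM in each library, had a log2 fold change of 0.81 and did not pass (adjusted p 0.430). The median of the 32 genes was 0.00, with 16 above 0 and 16 below, and 4 had an unadjusted p under 0.05, against 14.7% of all genes, so that the list as a whole lay near the background.

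Among 7 genes of p53, its regulators and its target genes, 1 passed in edgeR, against 1.44% of all genes. Free ribosomal proteins such as Rpl5 and Rpl11 are known to bind MDM2 and thereby stabilise p53, which was not tested here. Cdkn2a, which encodes p16INK4a and p19ARF, rose from 11.8 and 14.6 RPKM in WT to 53.8 and 72.0 RPKM in Nfat5-/-, a log2 fold change of 2.27 (SE 0.18) at an adjusted p of 0.00433. The study had named Cdkn2a in these KCs too, and the count of this list has the same limit. Mdm2 was at 25.6 and 32.3 RPKM in WT, against 42.1 and 42.2 RPKM in Nfat5-/- (0.55, adjusted p 0.0946), and Cdkn1a, encoding p21, 189 and 204 RPKM in WT, against 257 and 289 RPKM in Nfat5-/- (0.49, adjusted p 0.0892).

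In edgeR, 6 of the 7 genes had an unadjusted p under 0.05, against 14.7% of all genes. These 6 had positive values, and the exception was Trp53. The list was chosen with earlier results of these data known, so that this count is not independent of them. Whether Mdm2 and Cdkn1a passed depended on the setting. Neither passed in the edgeR fit of total exon reads. In DESeq2 the adjusted p-values of Mdm2 and Cdkn1a were 0.0113 and 0.00584, and in edgeR without a filter on low counts 0.000393 and 0.00122. The fit without a filter called 1109 genes in all, against 175 with the filter. In edgeR, Cdkn1a also passed on exon-exon reads (adjusted p 0.0495) and Mdm2 without WT replicate 2 (0.0448). Bbc3, Ccng1 and Phlda3 had log2 fold changes of 0.41, 0.31 and 0.28 and did not pass in edgeR. Whether the value of Rps27l is tied to those of these genes was not tested.

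Some markers of other cell types differed between the groups. Of 6 smooth muscle and contractile markers 5 were tested, of which 4 passed in edgeR (Acta2, Tagln, Myl9 and Cnn1), against 1.44% of all genes, and the list summed to 186 and 152 RPKM in WT and to 524 and 832 RPKM in Nfat5-/-. Of 4 melanocyte markers tested, 1 passed and was lower (Tyrp1), 3 had an unadjusted p under 0.05, and Mitf lay above 0, with a log2 fold change of 0.35 that did not pass. The list of 6 summed to 7.54 and 7.20 RPKM in WT, against 2.30 and 3.20 RPKM in Nfat5-/-. Of the other lists, 0 of 8 KC, 0 of 3 fibroblast, 0 of 2 immune and 0 of 1 endothelial markers tested passed, with 1 KC and 1 fibroblast marker at an unadjusted p under 0.05. The fibroblast markers summed to 0.598 and 0.514 RPKM in WT and to 0.850 and 1.83 RPKM in Nfat5-/-, and the 3 tested had log2 fold changes from 0.79 to 2.64, with a median of 0.89. None of the markers in the files was at 0 reads in all libraries. The part of these markers in the values of the RP genes was not tested.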

How the data were processed

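RNA was isolated from cultured tail KCs, and poly(A) libraries were read as single reads of 59 bases. The authors mapped the reads to GRCm38 with CLC Genomics Workbench (version 12, default settings). They deposited counts per gene of total and unique exon, gene, exon-exon and intron reads, and deposited RPKM values, which were read here after turning decimal commas into points. How reads with several matches were shared between genes, and whether strand was used, is not given in the sources used here. The files' TPM columns were not used.

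Counts of total exon reads were tested with edgeR 4.0.16 (quasi-likelihood test, filterByExpr, TMM factors, genotype as the only term) in R 4.3.3 over all genes, with Benjamini-Hochberg adjustment and a threshold of 0.05. DESeq2 1.42.0, limma 3.58.1 on log2 RPKM and fits on unique, exon-exon and intron reads were run beside it, and the last 2 were chosen after seeing the data. Only the edgeR quasi-likelihood model was tested on simulated data, with changes larger than those of the RP genes. The permutation test used scipy 1.17.1. Genes were named by rule: the 10 highest in RPKM, the 5 highest and 5 lowest log2 fold changes, all paralogues, the 5 highest among those with at least 90% unique reads, the 5 with the lowest unique share, and, of each further list, genes past the threshold and the 2 largest changes; others were chosen after their values were seen. Some genes that the rule names are not reported here; counts and medians include them. The genes and lists were chosen with earlier results of these data known. The depth, 15899630 to 23059639 exon reads per library, and the 2 libraries per group limit the precision.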

Additional observations from a re-analysis of the deposited data

How the results depend on the processing

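The RP genes called stayed at 0 in edgeR with gene reads, unique reads, other scaling factors, a stricter filter, a replicate block and without each replicate in turn, in limma-trend with either pseudocount and in DESeq2. Without a filter on low counts 1 RP gene was called and 1109 genes in all. Over all genes, 263 were called with library totals and 420 with DESeq2, and 28 to 244 with single libraries left out, where replicate 2 of Nfat5-/- gave the lowest count and its replicate 1 gave 69. The median log2 fold change of the RP genes was -0.069 to 0.088 with single libraries left out and -0.02 to 0.01 elsewhere, so that its sign depended on the setting. The difference in the share of exon reads, -0.094 percentage points, was 0.0323 points on summed RPKM and -0.485 to 0.296 points with single libraries left out, which was positive without replicate 2 of Nfat5-/-.

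Whether the replicate numbers pair the samples is not given in the sources used here. Same-numbered libraries deviated with a correlation of -0.0489 over all genes and of -0.157 over the RP genes. These values gave no sign of pairing, but cannot show that the samples were unpaired. With the replicate block, 164 genes and 0 RP genes were called, the median of the RP genes was 0.00, and Mxd1 had an adjusted p of 0.0562.

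Of 604 fold changes of 38 named genes under the alternatives, 15 changed sign, all of genes that did not pass the test. On unique exon reads these were Rpl21 (-0.096), Rps12 (-0.13), Rps27 (0.49) and Rpl7 (0.00070), and on exon-exon reads, a setting added after seeing the data, Rpl22 (-0.026). With single libraries left out, the values ran from -0.21 to 0.051 for Rps27, from -0.048 to 0.11 for Rpl22, from -0.18 to 0.018 for Rpl22l1, from -0.12 to 0.047 for Rplp1, from -0.091 to 0.079 for Rpl7, from -0.059 to 0.21 for Rpl36a and from -0.12 to 0.17 for Rpl36al. On unique counts, the small share of reads that match a single place limits Rps27 and the other genes with few unique reads.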
